A study of Drosophila melanogaster with 3 samples.

Results

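Stonewall (Stwl) peaks in the pericentromeric ends of 4 chromosome arms and on chromosome 4 are described here, as mapped by chromatin immunoprecipitation and sequencing (ChIP-seq) in whole Drosophila melanogaster embryos. A peak of the pooled list was taken if its summit, the base of highest signal, lay on chromosome 4, on 2L beyond 22 Mb, on 3L beyond 23 Mb, on 3R before 4.5 Mb or on X beyond 22 Mb of the dm6 genome. This gave 685 of the 30000 pooled peaks, of which 211 were on chromosome 4, 82 on 2L, 42 on 3L, 249 on X and the others on 3R. Of the 685, 110 were also in the list of 7241 peaks that passed the authors' irreproducible discovery rate (IDR), with 44 on chromosome 4, 10 on 2L, 7 on 3L, 25 on 3R and 24 on X. The choice used position only, not signal. The peak in the X block nearest its boundary was an IDR peak 449 bp upstream of CG14621 with a signal value of 280.2, and the nearest outside it was a peak below the IDR list with a value of 57.6 next to lncRNA:flam. At the boundaries of 2L, 3L and 3R the nearest peaks on both sides were all below the IDR list, with signal values of 50.9 to 93.4.

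All samples belonged to 1 group: 3 biological replicates of embryos, collected at 0 to 10 hours of age, of a transgenic line with stable expression of Stwl bearing a C-terminal GFP. The protein was precipitated with an antibody against GFP after sonication to 200 to 800 bp. There was no second condition, and no list from an untagged line was analysed here. The labels name the samples biological replicates without saying more of how the embryos were collected, and whole embryos mix all cell types, so a site used in few cells and a site weakly used in many cannot be told apart. Each replicate list and the pooled list held 30000 peaks, read depth is unknown, and the authors' signal value has a scale of its own in each list, so replicates were compared by rank or through their 7241 strongest summits.

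Stwl is a nuclear protein with a MADF DNA-binding domain, known for keeping female germline stem cells from differentiating and for a role at heterochromatin. The chromosome ends next to the centromeres are rich in transposons and packaged by HP1 and methylated H3K9, yet hold genes such as light that need this setting for normal expression. Chromosome 4, the small dot chromosome, carries many of the same marks along its gene-bearing arm and is also coated by the protein POF, and most of its genes are active. BEAF-32 is an insulator protein known to bind CGATA, and DREF, a factor of housekeeping promoters, binds the DNA replication-related element (DRE) TATCGATA. The DRE holds CGATA once on each strand, so every DRE also counts as CGATA.

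The sequences around selected summits are shown to let the strongest sites be read beside their motifs. They come from the RefSeq copy of the dm6 assembly, with CGATA or its complement TATCG in capitals. The first 8 are centred on IDR summits that are among the strongest of their chromosome or block. Windows of similar standing at bt, the 5' UTR of Clamp, CG1103 and asRNA:CR45009 are not printed. They hold 0, 0, 2 and 3 copies of CGATA in the same span, and none holds a DRE. CG1103 is the strongest site of 3R, above the printed CG9795. The last window is centred on the replicate 1 summit at lt, which had no pooled peak and was chosen after its values were seen. As printed, the Sox102F, Zyx, Rab21 and lt windows hold no CGATA. The printed Asator window holds 1 copy and the Ir40a window 1 DRE that counts as 2 copies. The nrm, Snap25 and CG9795 windows hold 3 copies each, a DRE included. The printed windows are shorter than those of the motif counts below, which reach 100 bp to either side of the summit. In the longer windows Sox102F has 1 copy, 61 bp from its summit, and Rab21 has 3, the nearest 64 bp away. Asator has 2 copies there, and Zyx still has none.
Sox102F (chr4:834982-835082, plus strand): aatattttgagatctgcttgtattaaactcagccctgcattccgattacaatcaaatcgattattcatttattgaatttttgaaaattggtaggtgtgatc
Zyx (chr4:1064956-1065056, plus strand): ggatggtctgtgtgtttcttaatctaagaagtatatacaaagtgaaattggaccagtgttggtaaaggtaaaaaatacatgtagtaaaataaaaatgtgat
Asator (chr4:486678-486778, plus strand): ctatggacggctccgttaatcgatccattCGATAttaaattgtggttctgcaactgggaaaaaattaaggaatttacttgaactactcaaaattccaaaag
Ir40a (chr2L:22215250-22215350, plus strand): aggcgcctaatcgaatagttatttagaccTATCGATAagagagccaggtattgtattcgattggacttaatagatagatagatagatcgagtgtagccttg
nrm (chr3L:23015868-23015968, plus strand): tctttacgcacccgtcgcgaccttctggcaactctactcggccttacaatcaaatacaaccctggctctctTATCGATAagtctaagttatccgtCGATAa
Snap25 intron (chr3L:24231506-24231606, plus strand): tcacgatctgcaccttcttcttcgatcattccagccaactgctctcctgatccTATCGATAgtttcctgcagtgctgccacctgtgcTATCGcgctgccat
CG9795 (chr3R:4319570-4319670, plus strand): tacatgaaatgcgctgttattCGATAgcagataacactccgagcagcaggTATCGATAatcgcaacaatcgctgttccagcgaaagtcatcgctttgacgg
Rab21 (chrX:23013306-23013406, plus strand): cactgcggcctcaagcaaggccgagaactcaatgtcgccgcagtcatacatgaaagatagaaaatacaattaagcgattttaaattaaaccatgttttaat
lt (chr2L:22924729-22924829, plus strand): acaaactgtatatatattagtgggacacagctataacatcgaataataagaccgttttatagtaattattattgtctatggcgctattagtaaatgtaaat

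The 3 strongest sites of chromosome 4 lay near Sox102F, bt and Zyx. The highest of all 685 peaks was 639 bp upstream of the start of Sox102F, which encodes a SoxD family transcription factor, with a summit at chr4:835032. Its signal value of 5750 put it at rank 9 of the pooled list, and it had rank 10, 7 and 9 in replicates 1, 2 and 3. Replicate ranks of summits are those of the replicate summit within 150 bp, and a summit without one is said to have no peak there. The next, an intergenic site with a signal value of 1789, lay 2451 bp upstream of bt, the gene of the giant muscle protein projectin, and ranked 119, 98 and 128 in the replicates. The site after it was 5 bp upstream of a start of Zyx, which encodes the focal adhesion protein zyxin, inside apolpp, the precursor of the main haemolymph lipoproteins. It had a signal value of 1585 and ranks of 136, 192 and 166. The lowest rank of these 3 sites in any replicate was 192.

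Other strong summits of chromosome 4 lay at Asator, the gene of a tau-tubulin kinase, with 1070 in an intron 695 bp from a start, 718.5 at 217 bp and 307.0 at 36 bp. The promoter of asRNA:CR44029, inside unc-13, a gene of synaptic vesicle priming, had 1028, with ranks of 1427, 253 and 730 that were less even than those of the 3 leading sites. Actbeta, which encodes an activin ligand, had 1016 at 77 bp upstream, with ranks of 917, 429 and 631. The eye selector gene ey had a summit 32 bp upstream of its start with 801.0 and another 742 bp upstream with 578.0. A summit 3884 bp upstream of zfh2, a zinc finger homeodomain factor, had 737.5, and one in an intron shared by CG32017 and the kinesin gene Kif3C had 727.4.

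The pericentromeric blocks differed in what their leading sites were. On X, the strongest was 53 bp into Rab21, an endosomal GTPase gene, with 1538, followed by the promoter of asRNA:CR45009 with 1476 and a site of 1144 in the 3' UTR of the stoned locus, where stnA and stnB share 1 transcript and act in synaptic vesicle recycling. On 3L, the leading sites were in introns of nrm, a cell adhesion gene, with 1334, and of Snap25, a synaptic fusion gene, with 703.2, and the next lay in an intron of nAChRalpha4 with 345.4. The Snap25 site ranked 1410 and 584 in replicates 1 and 2 and had no peak in replicate 3. On 3R the leading sites were promoters: CG1103 with 1145, CG9795 with 1100 and CG9776 with 922.6, all within 63 bp upstream of a start. On 2L they were a site 924 bp upstream of Ir40a, a humidity receptor gene, with 752.9, a site in the 5' UTR of Clamp with 502.5 and the promoter of lncRNA:CR46480 with 452.6. Clamp, which encodes a zinc finger adaptor of dosage compensation, had a further summit 116 bp upstream with 402.7.

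The 12 strongest pericentromeric summits also held a site of 1007 between genes on X, 28185 bp from the start of CG17601, and 1 of 984.6 in an intron of l(1)G0196, an inositol phosphate kinase gene. On 3R they held CG1074 with 849.5 at 18 bp upstream and a site of 762.8 at 559 bp upstream of CG31523. Further genes of the 3R block are named here after their values were seen. The summit 39 bp upstream of CG9855 had 734.7. The lysosomal enzyme gene beta-Man had 653.6, with ranks of 3719, 3900 and 1255, so it stood higher in replicate 3 than in the other replicates. The Toll pathway adaptor gene tub had 612.4 and srl, the fly PGC-1 homologue of mitochondrial gene control, 599.1. The auxilin gene aux, of clathrin uncoating, had 473.6, and the septate junction gene Cont had 448.6. Lipt2, asRNA:CR43629, lost, DhpD and CG14646 had 533.5, 517.3, 372.7, 238.3 and 230.4. The summit at CG14646 had no peak in replicate 1 and ranked 23637 in replicate 2 and 4788 in replicate 3. Lower values were found at the ESCRT gene Vps24, with 210.0, and the polyadenylation factor gene Fip1, with 206.3. The summit at Fip1 had no peak in replicate 3, and that at Vps24 none in replicate 2. On X, the S6 kinase gene S6kII had 522.2 and the deubiquitinase gene Usp2, whose summit also marks wap as bound, 345.7. On 2L the cyclin gene CycK had 223.5.

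**Figure D1:**
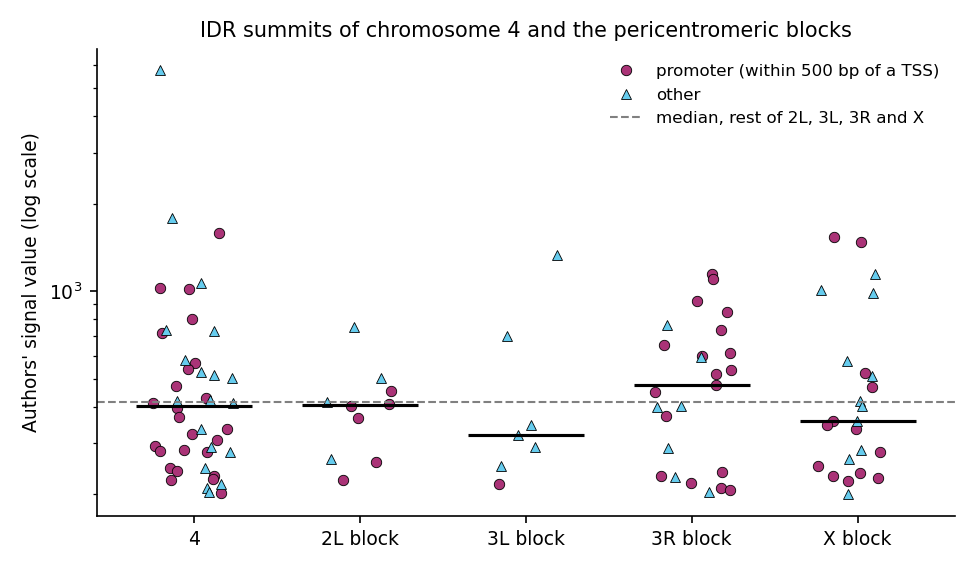
The authors' signal value (vertical axis, log scale, no unit) of each of the 110 IDR summits by chromosome or block. Circles lie within 500 bp of a TSS and triangles elsewhere, black bars are medians, and the dashed line is the median of 414.4 of the rest of 2L, 3L, 3R and X; the Sox102F site at 5750 stands alone above all others.

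The IDR summits had signal values close to those elsewhere on the same arms. The signal values ran from 199.5 to 5750 with a median of 401.9, against 414.4 for the 5887 IDR summits on the rest of 2L, 3L, 3R and X. The medians of chromosome 4 and of the 4 blocks together were 403.4 and 401.9. Among the strongest summits within 150 bp, 85 of the 110 were found in replicate 1, 92 in replicate 2 and 96 in replicate 3. All 3 replicates held 70, or 63.6% (95% Wilson interval 54.3 to 72.0), against 67.8% of the rest, so the interval spans the value of the rest. Only 2 summits had none of the 3, at scro on 3L and, with 203.6, at CG31523 on 3R. The intervals in this text cover counting error only, since peaks and genes are not independent replicates.

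Fewer of the pooled peaks here reached the IDR list than elsewhere. The share was 16.1% (13.5 to 19) of 685, against 23.3% of 25292 on the rest of the same arms and 24.1% of all 30000 pooled peaks. The difference was -7.22 percentage points (95% Newcombe interval -9.83 to -4.24). Taken as the share of each replicate's own peaks that were among its 7241 strongest, the difference was -7.81, -8.95 and -6.11 points in replicates 1, 2 and 3, a mean of -7.62 ± 1.43 (SD, n = 3). All 3 replicates went the same way, and the exact sign-flip permutation test gave p = 0.25, the smallest two-sided p that 3 replicates allow. The share was 20.9% on chromosome 4, 12.2% on 2L, 16.7% on 3L, 24.8% (17.4 to 34.0) on 3R and 9.64% on X. The intervals of chromosome 4 (15.9 to 26.8), 3L (8.32 to 30.6) and 3R span the value of the rest, and those of 2L (6.76 to 21.0) and X (6.56 to 13.9) lie below it. Of the 575 peaks below the IDR list, 74 (12.9%) had their summit in an annotated transposon, against 0.665% of such peaks on the rest, and 2 of the 110 IDR summits did (1.82% against 0.238% of IDR summits on the rest), in a gypsy8 copy on 2L and an INE-1 copy on chromosome 4. With summits in transposons left out, the difference in the share was -5.62 points.

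Most IDR summits lay at gene starts, but fewer than elsewhere. A start site (TSS) of any gene lay within 500 bp of 63 of the 110, or 57.3% (47.9 to 66.1), against 66.6% on the rest. Of the others, 20 were intergenic, 17 intronic, 6 in the 3' UTR of a gene, 3 in coding sequence and 1 in a 5' UTR. Of the 63 promoter summits, 50 (79.4%) were upstream of the nearest TSS, against 85.0% on the rest. The share at starts was 56.8% on chromosome 4 and 57.6% in the blocks. The share rose to 65.5% with 1000 bp and fell to 53.6% with 250 bp. The 126 promoter summits among the 575 weaker peaks made up 21.9%, against 20.3% on the rest. These weaker peaks had signal values of at most 193.3 with a median of 70.3, against a median of 69.7 on the rest. Within 150 bp they were found in the full list of replicate 1 in 45.2% of cases, of replicate 2 in 46.1% and of replicate 3 in 65.4%, and in all 3 lists in 15.8%, against 14.2% on the rest.

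Seen from the genes, fewer promoters were bound than on the rest of the arms. Bound genes are protein-coding genes with at least 1 TSS no farther than 500 bp from an IDR summit. This held for 65 of 276 genes, or 23.6% (18.9 to 28.9), where 42.1% of all 13945 protein-coding genes and 43.2% of the 10817 on the rest of the same arms were bound. The difference from the rest was -19.7 points (-24.4 to -14.2), and in the strongest summits of replicates 1, 2 and 3 it was -16.8, -7.55 and -20.0 points. All 3 replicates were below 0, with a mean of -14.8 ± 6.44 (SD, n = 3) and an exact sign-flip permutation p of 0.25. Replicate 2 had the smallest difference. The difference was -11.4 points with all pooled peaks, -8.94 among isolated genes, whose starts are more than 2000 bp from any start of a different gene, and -10.0 among genes with no neighbour that starts divergently within 1000 bp.

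The difference was larger in the pericentromeric blocks than on chromosome 4, which was not tested. In the blocks 42 of 196 genes were bound, or 21.4% (16.3 to 27.7), and the difference from the rest was -21.8 points (-27.1 to -15.5), with replicate values of -20.3, -10.8 and -23.2 (exact sign-flip permutation p = 0.25, n = 3). It was -12.5 among isolated genes and -13.4 among genes without a divergent neighbour. On 3L, 1 of 36 genes was bound, the NK homeobox gene scro, or 2.78% against 43.8% on the rest of the arm. On 2L it was 5 of 37 (13.5% against 41.8%) and on X 15 of 59 (25.4% against 44.6%). Of the 59 X genes, 21 form an array of near copies, CG40813 to CG41562 between 22143058 and 22252414, where 91.0% to 100% of the 31-base words within 500 bp of each start also occur at another gene, and none of them had a pooled peak. Without genes of which 50% or more of these words recur, on both sides of the comparison, the X block had 15 of 38 (39.5%) against 45.8%, a difference of -6.36 points whose interval, -20.4 to 9.59, included 0. The same step, added after the data had been seen, left 24.1% of 174 against 44.2% for the blocks together, a difference of -20.0 points. How far reads can be placed in such copies was not tested. The 3R block had 21 of 64 (32.8% against 43.0%), a difference of -10.2 points whose interval, -20.6 to 2.13, included 0.

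On chromosome 4, 23 of 80 genes were bound, or 28.8% (20.0 to 39.5). The difference from the rest was -14.5 points (-23.3 to -3.73), but the replicates gave -8.02, 0.53 and -11.9, so replicate 2 did not show it, and the exact sign-flip permutation p was 0.5 (n = 3). Without near copies of gene starts, as described for X, the replicate 2 value was -0.37 and the p 0.25. Counting all pooled peaks, 47 of 80 genes had a peak, 0.95 points above the rest. Among isolated genes, 9 of 33 (27.3%) were bound on chromosome 4 and 24.3% on the rest, a difference of 2.95 points in the opposite direction.

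**Figure D2:**
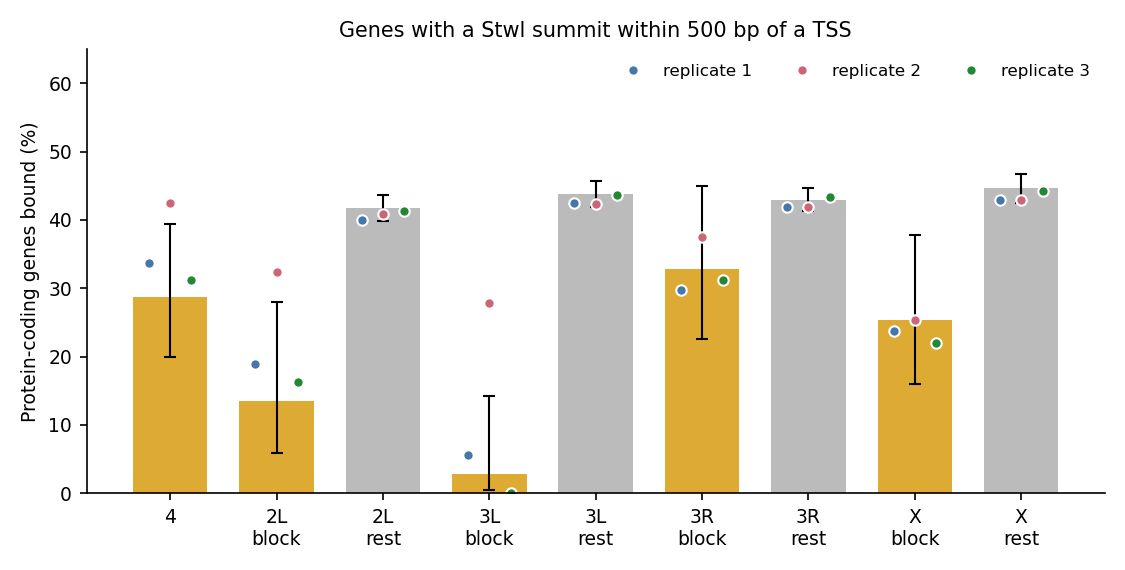
Percent of protein-coding genes with a summit within 500 bp of a TSS (vertical axis) on chromosome 4, in each pericentromeric block (gold) and on the rest of each arm (grey). Bars are the IDR list with 95% Wilson intervals and points are the 7241 strongest summits of each replicate; replicate 2 lies highest in all gold groups, at 42.5% on chromosome 4 and 27.8% on 3L, where replicate 3 has 0.

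Genes arranged head to head, with divergent starts at most 1000 bp apart, were bound at a higher share than the other genes on chromosome 4, in the blocks pooled and on the rest. They made up 27.5% of the genes on chromosome 4, 18.4% in the blocks and 36.7% on the rest. Of them 8 of 22 (36.4%) were bound on chromosome 4 and 21 of 36 (58.3%) in the blocks, against 72.0% of 3971 on the rest. Among genes without such a partner, 15 of 58 (25.9%) were bound on chromosome 4, against 26.5% on the rest, a difference of -0.66 points. In the blocks 21 of 160 (13.1%) were. This split by partner was added after the data had been seen. A summit within 500 bp of the starts of both partners counts for both genes, so partners are not independent counts. In the X block, 12 of 14 head-to-head genes were bound and 3 of 45 of the others (3 of 24 without the array). Each of these 12 genes had the same strongest summit as its partner. In the 3R block it was 9 of 20 and 12 of 44. The 2L block had 0 of 2 bound against 5 of 35, and the 3L block has no head-to-head gene.

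With the 4 arms pooled, the share of bound genes was lower inside the boundary than outside. It was 31.3% of 412 genes in the 1 Mb outside, 25.4% (30 genes) in the first 0.5 Mb inside and 15.4% of 78 farther in. Without near copies the shares were 44.0%, 30.9% and 15.6%. The arms differed in this. On 2L the shares were 17.6%, 21.7% and 0%, and the first was 45.1% without near copies. On 3R they were 47.3%, 35.7% and 12.5%, and on 3L 36.9%, 0% and 3.57%. On X they were 41.8%, 16.1% and 35.7%, and without the copies 46.9%, 5 of 10 and 35.7%. Of the 66 pericentromeric IDR summits, 42 were in the first 0.5 Mb, with 10 of 10 on 2L, 3 of 7 on 3L, 22 of 25 on 3R and 7 of 24 on X. On 2L no pooled peak lay more than 0.5 Mb inside, although 14 genes do. Per Mb of known bases there were 33.1 IDR summits on chromosome 4, 16.3 on X, 6.61 on 2L, 5.59 on 3R and 1.40 on 3L, against 62.2 on the rest. Genes are also sparser here, with 20.0 per Mb against 114, and soft-masked repeats take 38.7% of the bases against 17.4%. Per protein-coding gene there were 0.550 IDR summits on chromosome 4 and 0.337 in the blocks, against 0.544 on the rest.

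The replicates disagreed on these regions more than elsewhere. The members' regions held 2.63% of the peaks in the list of replicate 1, 3.77% in that of replicate 2 and 1.99% in that of replicate 3, or 790, 1132 and 598 peaks. On chromosome 4 the numbers were 249, 446 and 199, and on 3L 84, 167 and 30. On 2L more than 0.5 Mb inside the boundary there were 16, 46 and 0. By contrast the rest of the arms held 82.9%, 82.3% and 83.9%. Replicate 2 had the most peaks on chromosome 4, 2L, 3L and 3R and replicate 3 the fewest there. The pooled list took 2.28%, between replicates 1 and 3. Which step of the experiment or the processing the difference came with was not tested.

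The same was seen gene by gene. Among the 276 genes, 26 were bound only in the strongest summits of replicate 2, or 9.42% (6.51 to 13.4), against 2.00% on the rest. Replicate 3 alone bound 4 (1.45% against 1.94%) and replicate 1 alone 5 (1.81% against 1.22%). Exactly 2 replicates bound 12 genes for replicates 1 and 2, 3 for 1 and 3, and 8 for 2 and 3. All 3 replicates bound 49 genes, or 17.8% against 36.2%, and none bound 169, or 61.2% against 52.1%. Sites shared by the strongest summits of replicates 1 and 2 within 150 bp numbered 90, and 11 of them (12.2%, 6.96 to 20.6) had no peak at all in replicate 3 within 500 bp, against 23 of 4408 (0.522%) on the rest. Of the sites shared by replicates 1 and 3, 1 of 79 had none in replicate 2, against 118 of 4686 (2.52%) on the rest. Of those shared by replicates 2 and 3, 1 of 81 had none in replicate 1, against 27 of 4499 (0.600%) on the rest. This comparison of pairs was added after the data had been seen.

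**Figure D3:**
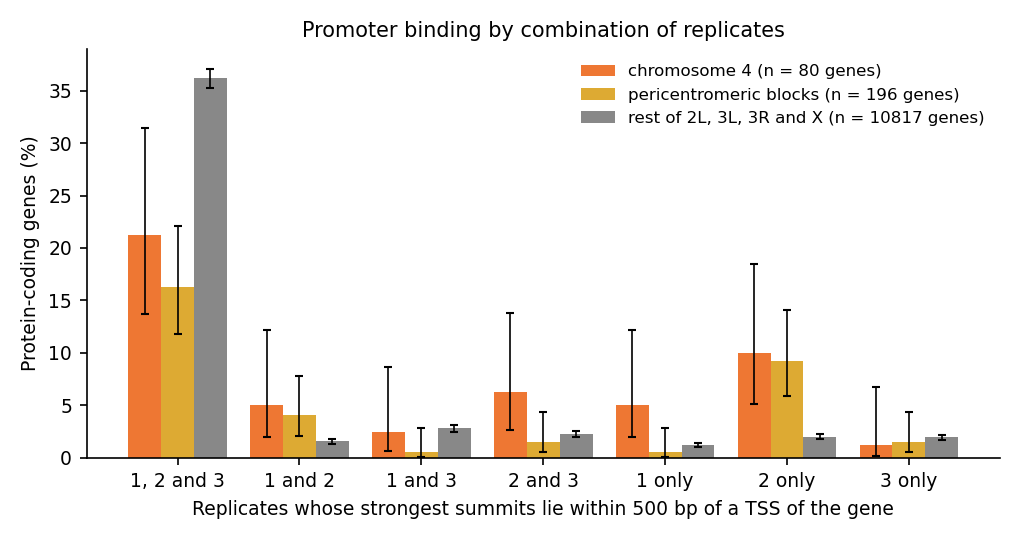
Percent of protein-coding genes (vertical axis) bound in each combination of replicates, by the 7241 strongest summits of each, with 95% Wilson intervals. Binding in replicate 2 alone was seen for 10.0% of chromosome 4 genes and 9.18% of pericentromeric genes, against 2.00% on the rest.

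For 8 of the 90 sites shared by replicates 1 and 2 (8.89%) there was also no pooled peak within 500 bp. On the rest this held for 38 of 4408 (0.862%). Of the 8 sites, 7 lay at gene starts. One was 16 bp from the start of lt, the light gene, which encodes the vesicle trafficking protein Vps41 and is the classical case of a gene that needs heterochromatin. It ranked 5641 in replicate 1 and 4647 in replicate 2, and the nearest replicate 3 summit was 663319 bp away. The others at starts were CG12567 on 2L, CG40228, CG40045 and lncRNA:CR46475 on 3L, and pan and Arl4 on chromosome 4. The eighth was in nAChRalpha4, 7923 bp from the nearest TSS. These genes were named after their values were seen.

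The classical heterochromatic genes showed the widest spread between replicates of the 4 gene lists. Of the 22 in the regions, 11, 17 and 3 had a peak within 500 bp of a TSS in replicates 1, 2 and 3. The full replicate lists were used here, and the share of all genes in them was not computed. The pooled list had such a peak at 6 of the 22, against 56.1% of all protein-coding genes. In the IDR list 4 were bound, or 18.2% against the 42.1% of all genes: wap, which encodes a WD40 protein, with 345.7, su(f), a factor of mRNA 3' end formation, with 222.4, Myo81F, a myosin gene, with 217.8, and scro with 216.9. The peak at Myo81F ranked 5373 and 3632 in replicates 1 and 2 and that at scro 7423 and 8044, and neither had a peak in replicate 3. Peaks in replicate 2 alone were found at cta, which encodes the G protein subunit concertina, with rank 4838, at RpL15 with 3969, at Dbp80, an RNA helicase gene, with 3515, at the Mediator subunit gene MED21 with 4787, at Snap25 with 13101 and at the H3K4 methyltransferase gene Set1 with 10797. RpL5 had ranks of 8371 and 6623 in replicates 1 and 2 and the cohesin gene vtd 25403 and 5371, with no peak in replicate 3. No list held a promoter peak at Parp1, stnA, stnB, spok or Pzl.

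Chromosome 4 transcription factor genes were bound in 4 of 14 cases (28.6%, 11.7 to 54.6, against 42.1% of all genes). These were ey with 801.0, the Wnt effector gene pan with 563.6, the TFIID subunit gene Taf3 with 323.4 and the Hedgehog effector gene ci with 279.2. The ey promoter ranked 1173, 1582 and 1073, evenly over the replicates, whereas ci ranked 10673, 6152 and 4747. The promoters of Sox102F and Mitf had pooled peaks below the IDR list, so the strong Sox102F site lay outside the 500 bp window of its promoter. No replicate had a promoter peak at the Pax genes toy and sv, at the forkhead gene fd102C or at dati.

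Neuronal and signalling genes were bound in 6 of 17 cases (35.3%, 17.3 to 58.7, against 42.1% of all genes). Actbeta was the strongest with 1016, followed by CaMKII, a kinase gene, with 429.8 and the semaphorin receptor gene PlexA with 395.3. The CaMKII summit of 429.8 had no peak in replicate 3 within 150 bp. The glutamate receptor genes mGluR and Ekar had 280.8 and 201.4, and Cadps, a gene of dense-core vesicle release, had 240.4. One of the 17, zyd, lies in the X block and had only a weaker pooled peak. The list also holds bt, the gene of the muscle protein projectin, which had a promoter peak only below the IDR list. The semaphorin receptor gene PlexB fell just short of the IDR list with 190.7, and the adaptor gene Crk and the GABA transporter gene Gat had no peak in any replicate.

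Housekeeping genes of chromosome 4 were bound in 8 of 19 cases (42.1%, 23.1 to 63.7), the same share as over all genes. Asator led with 718.5, then the ribosomal protein gene RpS3A with 537.8 and the pair Pur-alpha and Tdg, a nucleic acid binding protein and a DNA glycosylase, which share 1 summit of 413.4. Hcf, the host cell factor gene, had 368.3, Rad23, of DNA repair, 336.3, and gw, of microRNA silencing, 246.9. The gw summit had no peak in replicate 1 within 150 bp. Dyrk3, a kinase gene, shared the summit of Cadps. RpS3A ranked 2396, 3759 and 2367 in the replicates. By contrast eIF4G1, a translation initiation factor gene, ranked 2923 in replicate 2 and PIP4K 5007, with no peak at either in replicates 1 and 3. The gene of the ATP synthase beta subunit, ATPsynbeta, ranked 4247 in replicate 2, 13244 in replicate 3 and had none in replicate 1.

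**Figure D4:**
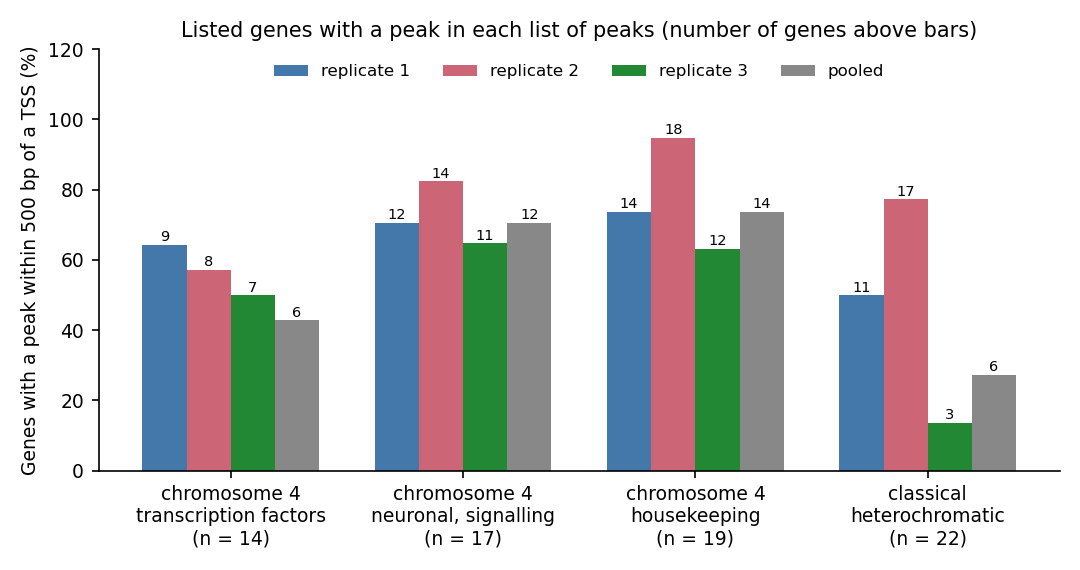
Percent of the genes of each list (vertical axis) with a peak within 500 bp of a TSS in the full list of each replicate and in the pooled list, with the number of genes above each bar. The classical heterochromatic genes have 11, 17 and 3 of 22 in replicates 1, 2 and 3, and the chromosome 4 transcription factors 9, 8 and 7 of 14. Of all protein-coding genes, 56.1% had such a peak in the pooled list.

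CGATA was in more of the IDR summits than of the windows beside them. Its share was also higher than at the IDR summits on the rest, over all summits, at promoters and away from promoters. Within 100 bp of the summit, on either strand, 65 of 110 held it (59.1%, 49.7 to 67.8), against 44.8% of summits on the rest, 22.7% of windows 1000 bp to either side and 37.2% of windows around all protein-coding TSSs. The share was 65.2% in the blocks (53.1 to 75.5) and 22 of 44 on chromosome 4, whose interval, 35.8 to 64.2, spans the value of the rest. The median distance from summit to the nearest copy was 26 bp, and 38.2% had 2 or more copies, against 26.3% on the rest. The DRE, which overlaps CGATA as stated, was in 24 of 110 (21.8%, 15.1 to 30.4), against 11.6% on the rest, 1.36% in the flanks and 6.43% around all TSSs. Away from promoters the DRE was in 11 of 47 summits (23.4%, 13.6 to 37.2), against 2.85% of 1967 on the rest, and CGATA in 48.9% against 26.8%. At promoters CGATA was in 42 of 63 summits (66.7%, 54.4 to 77.1), against 53.9% on the rest. The DRE shares there were 20.6% and 16.0%. The nrm, Snap25 and Ir40a windows printed above are such sites away from promoters.

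CGATA was in 33 of the 55 stronger and in 58.2% of the 55 weaker IDR summits of these regions, whereas on the rest it was 52.1% and 37.5%. Of the 575 peaks below the IDR list, 29.9% held it and 23 held the DRE. Among TSSs of the protein-coding genes here, CGATA was within 100 bp of 57.9% for bound genes and of 39.5% for unbound ones, against 47.6% and 27.6% on the rest. The DRE was at 10.0% (32 of 319) of the TSSs of unbound genes here, against 1.20% (95 of 7885) on the rest. Near copies of gene starts, such as those of the 21 genes of the X array, were kept in these counts. Their part in the DRE share was not tested. Of the TSSs of bound genes it was at 14.9% here and 12.1% on the rest.

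Of the other motifs, the M1BP motif GGTCACAC was in 8.18% of summits against 10.8% on the rest, the E-box CAGCTG in 8.18% against 13.6%, TATAAA in 22.7% against 30.2%, GAGAGAG in 1.82% against 4.13%, and GTGNGCAC, of the Ibf proteins, in 1.82% against 2.34%. GCCATTTT, the motif of Pho, was in 7 of 110 (6.36%, 3.11 to 12.6) against 2.21%. The Su(Hw) core TGCATA was in 17.3% against 12.8%, AGATAA, bound by GATA factors, in 10.9% against 10.8%, and CAGGTAG, of Zelda, in 0 of 110 against 0.629%, with a Wilson interval of 0 to 3.37% for the former. Around all TSSs these shares were 5.68% for M1BP, 13.5% for the E-box, 26.8% for TATAAA, 4.67% for GAGAGAG, 1.86% for GTGNGCAC, 2.17% for Pho, 7.80% for TGCATA, 10.6% for AGATAA and 1.08% for CAGGTAG. The median GC content of the windows was 36.8%, against 37.3% on the rest.

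**Figure D5:**
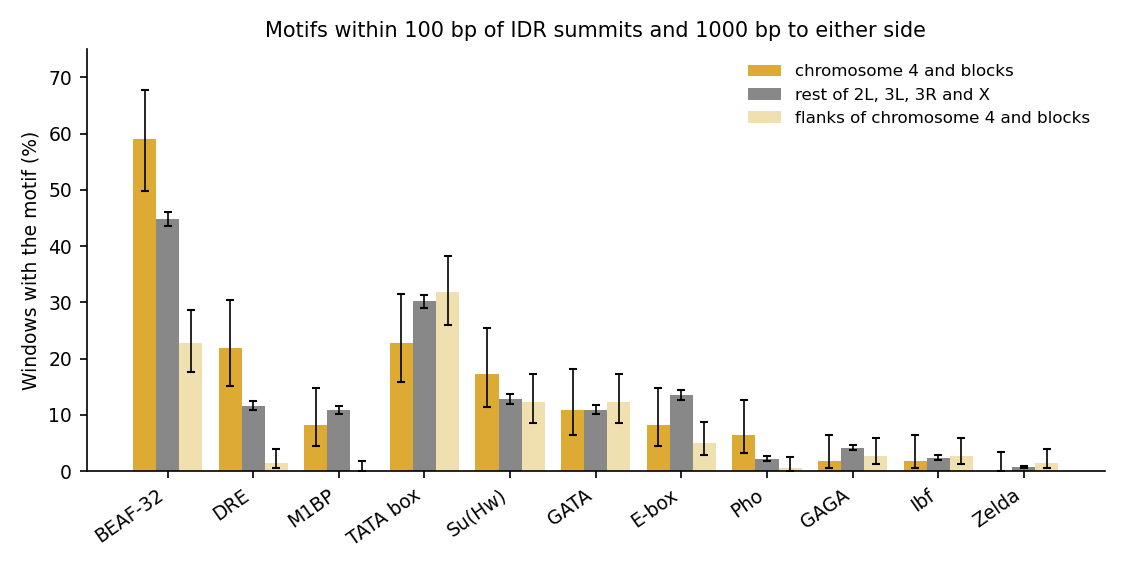
Percent of windows of 201 bp that hold each motif on either strand (vertical axis), for the 110 IDR summits (gold), the IDR summits on the rest of 2L, 3L, 3R and X (grey) and the flanks of the 110 (pale), with 95% Wilson intervals. BEAF-32 stands for CGATA, at 59.1%, 44.8% and 22.7%, and the DRE is at 21.8%, 11.6% and 1.36%.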

How the data were processed

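Per the deposited text files, the authors called peaks from each library with a control library, called a pooled list from all 3 libraries, and derived the IDR list from these; the labels name dm6 as the assembly. The sources used here do not give the aligner, the caller, their versions or the IDR threshold. The deposited signal value is the authors' own and has no stated normalization; the IDR list held the highest values of the pooled list, so it is a cut on signal. Summits (start plus the deposited offset, counted from 1) were used. Genes, TSSs and transposons came from Ensembl BDGP6.54 release 115. Shares have Wilson intervals and differences Newcombe intervals (95%); replicate differences were tested by exact sign-flip permutation (smallest p 0.25). Arm 2R has no block in the rule and was left out of the rest. Python 3.11.15, numpy 2.4.6, pandas 2.3.3 and scipy 1.17.1 were used, and the gene calling was tested on simulated summits.

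The regions, gene lists, motifs and tests were chosen with earlier results of these data known. Of 79 listed symbols 72 lie in the regions, 6 lie elsewhere and 1 was not matched. Named genes are those nearest the 12 strongest IDR summits of chromosome 4 and of the blocks, the strongest 3 of each block, the listed genes and the boundary peaks; others are said to be chosen after their values were seen.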

Additional observations from a re-analysis of the deposited data

How the results depend on the processing

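The differences in the share of genes bound kept their sign for both regions together and for the blocks together. In the 3R block the sign changed with isolated genes, of which 27.6% were bound against 20.7% on the rest of 3R. It also changed there without head-to-head partners, with 27.3% against 24.3%. The sign changed on chromosome 4 as well. There the difference of -14.5 points became 0.95 with all pooled peaks, 2.95 with isolated genes and -0.66 without head-to-head partners. With both regions together, the -19.7 points became -11.4 with all pooled peaks, -8.94 with isolated genes and -10.0 without partners, and in the blocks the -21.8 became -12.5 with isolated genes and -13.4 without partners. Without near copies of gene starts the 3 differences were -18.6 for both, -15.4 for chromosome 4 and -20.0 for the blocks. Leave-one-out consensus lists gave -21.1 to -17.5 for both, -15.9 to -12.5 for chromosome 4 and -23.1 to -18.3 for the blocks. The difference in the share of pooled peaks in the IDR list, -7.22 points, became -16.6 at promoters and -5.62 outside transposons, and -7.40 to -5.52 leaving out 1 replicate. The ratio of IDR summits per Mb to the rest, 0.128, became 0.173 outside repeats and 0.116 to 0.140 leaving out 1 replicate. The share of IDR summits at a promoter, 57.3%, became 53.6% with 250 bp, 65.5% with 1000 bp, 53.1% in the 3620 strongest IDR peaks and 53.6% in the consensus, and 54.4% to 58.9% leaving out 1 replicate. The share found in all replicates, 63.6%, became 52.7% with 75 bp. The causes were not tested. The comparisons without head-to-head partners, without near copies of gene starts, with the first TSS and with genes of 1 TSS were added after the data had been seen. No paired analysis was possible because there is only 1 group. Read depth is unknown, repeats that cannot be mapped stay in the bases counted, and 3 replicates cannot reach p under 0.25.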
